A study of Mus musculus with 2 samples.

Results

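The cell cycle genes described here are 40 genes chosen by name, 15 that act in S phase, 24 that act in G2 and mitosis and Stmn1, which was kept apart from both phases, and all 40 were found among the 32285 genes counted. Single cells were profiled from colorectal tumours that had been induced in mice with azoxymethane (AOM) and dextran sodium sulphate (DSS). One library came from wild-type (WT) mice and 1 from mice labelled STK25 wKO, the global knockout of the kinase STK25. The tumours of a group were combined and dissociated with trypsin, so each group is a single library, and neither the number of animals combined nor their age was stated. The deposited design text also mentions a sort on mCherry, which the methods do not describe.

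A dividing cell copies its DNA in S phase and separates the copies in mitosis. The licensing and synthesis genes, such as the Mcm helicase, Pcna and ribonucleotide reductase, are transcribed under E2F factors as cells enter S phase. Cyclin B, its kinase Cdk1, the spindle motors and the anaphase-promoting machinery are transcribed later. Their promoters often carry CHR and CCAAT elements, and the DREAM and FOXM1–MYBL2 complexes control them through the CHR. In the colon epithelium division is normally held in the crypt base and lower crypt, is driven by Wnt signals, and stops as cells mature into absorptive or secretory cells.

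Promoter sequence is shown because the genes of the 2 phases differ in it. The window of 250 bases before to 50 after the start of transcription (RefSeq, GRCm38.p6) was found for 33 members, as 13 windows of S phase genes and 22 windows of G2/M genes, and it was not found for Tpx2, Gins2, Mcm4, Stmn1, Ccna2, Ccne2 and Aurkb. For 5 genes the sequence follows as the 160 bases before the start, 5′ to 3′, with capitals marking matches, on either strand, to the CCAAT box, to the CHR letters TTTGAA and to an E2F word. The E2F words searched were TTTCCCGC, then TTTGGCGC, and also TTTCCCGG, and no motif letters were allowed to vary. Ube2c, which loads ubiquitin for the anaphase-promoting complex, lies at chr2:164769769-164769928 on the plus strand. Cdc20, an activator of that complex, lies at chr4:118437344-118437503 on the minus strand, and Mki67, the proliferation antigen Ki-67, at chr7:135716380-135716539 on the minus strand. Mcm5 and Mcm6, subunits of the replicative helicase, lie at chr8:75109349-75109508 on the plus strand and chr1:128359706-128359865 on the minus strand.
Ube2c: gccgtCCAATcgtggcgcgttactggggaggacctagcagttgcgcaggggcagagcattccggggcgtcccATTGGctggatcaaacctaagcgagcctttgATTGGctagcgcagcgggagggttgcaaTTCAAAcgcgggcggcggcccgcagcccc
Cdc20: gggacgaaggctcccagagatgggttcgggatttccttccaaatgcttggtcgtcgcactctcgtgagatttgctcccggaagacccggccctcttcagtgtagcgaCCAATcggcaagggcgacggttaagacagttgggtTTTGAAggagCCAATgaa
Mki67: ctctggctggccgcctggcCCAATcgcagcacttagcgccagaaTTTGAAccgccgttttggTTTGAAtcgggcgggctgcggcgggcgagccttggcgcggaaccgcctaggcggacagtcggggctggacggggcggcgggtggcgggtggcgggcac
Mcm5: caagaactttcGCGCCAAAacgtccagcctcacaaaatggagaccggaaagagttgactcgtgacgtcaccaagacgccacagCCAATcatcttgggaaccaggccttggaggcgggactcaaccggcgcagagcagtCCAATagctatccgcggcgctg
Mcm6: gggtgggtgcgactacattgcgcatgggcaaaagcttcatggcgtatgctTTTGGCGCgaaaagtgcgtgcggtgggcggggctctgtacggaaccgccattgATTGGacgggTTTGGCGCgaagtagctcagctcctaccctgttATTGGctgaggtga
Within the printed bases, Ube2c holds TTTGAA on the opposite strand with its first base at -29 from the start, and CCAAT at -57, -88 and -155. Cdc20 holds TTTGAA at -18 and CCAAT at -53 and -8, and Mki67 holds TTTGAA at -116 and -98 and CCAAT at -141. Mcm5 has an E2F word at -149 and CCAAT at -77 and -22, and Mcm6 has E2F words at -110 and -47 and CCAAT at -57 and -14. CCAAT was present in 20 of the 22 G2/M windows (90.9%) and 9 of the 13 S phase windows (69.2%), and in 37.4% of all 32851 windows. TTTGAA was present in 17 of the 22 G2/M windows (77.3%) and in 1 of the 13 S phase windows, that of Mcm2, and in 17.9% of all windows. An E2F word was present in 5 of the 13 S phase windows (38.5%), those of Cdc6, Mcm3, Mcm5, Mcm6 and Mcm7, in 1 of the 22 G2/M windows, that of Birc5, and in 2.80% of all. A match of letters is not a site, and its absence says only that these letters are not in the window.

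After filtering, 12270 of 12542 cells remained in the WT library and 13883 of 14168 in the STK25 knockout library, with medians of 1383 and 2091 unique molecular identifiers (UMIs) per cell. In all that follows, pairs of values are given in that order, WT then STK25 knockout, and log2 ratios are STK25 knockout to WT. Levels are UMIs per 1000000 UMIs (CPM) summed over the cells of a class, compared only within a gene or list and not between genes, and intervals are exact 95% intervals that cover counting error only. With 1 library per group there is no test, and a difference between the libraries cannot be told apart from differences between the animals, dissociations or library preparations. Stk25 itself was at 118 and 127 CPM, which checks neither label, since 3′ tags can come from a transcript of a disrupted allele and the labels and methods do not describe the allele. The libraries share 230 cell barcodes, 1.83% and 1.62% of each. Clusters were named from marker genes, with the cell cycle genes left out of the clustering, and each name below means a class like that cell type.

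In the 2640 and 4497 epithelial cells (Epcam, Krt8 and other keratin and claudin markers), the S phase genes were at the same summed level in both libraries and the G2/M genes were slightly higher in the STK25 knockout library. The S phase genes summed to 345 CPM (337 to 353) and 345 CPM (339 to 350), a log2 ratio of -0.00 (-0.04 to 0.04). The G2/M genes summed to 1152 CPM (1138 to 1166) and 1228 CPM (1218 to 1238), a log2 ratio of 0.09 (0.07 to 0.11). Hmgb2, a chromatin protein that is also transcribed outside mitosis, had the largest difference in CPM within that sum, and without it the ratio was 0.03 (0.01 to 0.05). After removing the cells with the highest doublet scores the ratio was 0.16. None of the 40 members differed by a log2 ratio of 1 or more in either direction, against 0.963% of 16712 genes that were higher and 1.28% that were lower by that much. The median member had a log2 ratio of -0.03, with 17 above and 23 below 0, beside a median of -0.11 over all genes, of which 6224 were above and 10488 below 0.

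**Figure D1:**
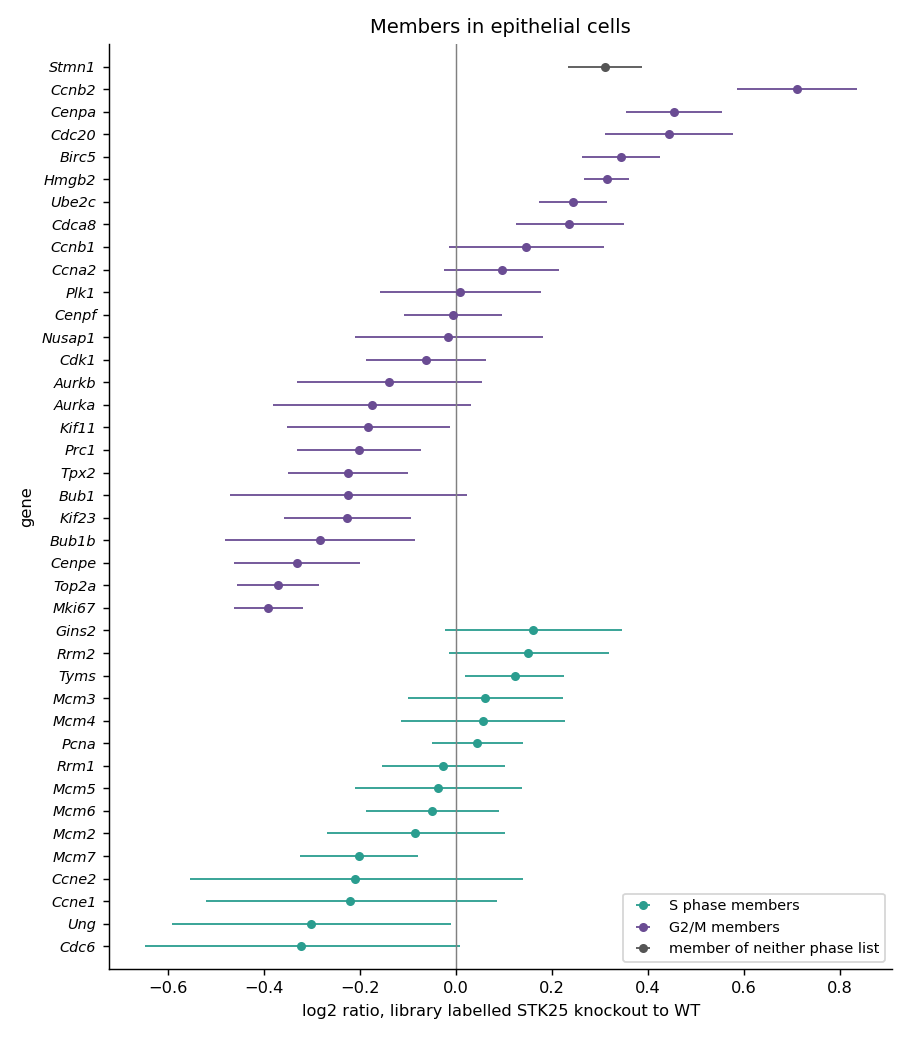
Log2 ratio of each member in epithelial cells (x axis, STK25 knockout to WT library) with its exact 95% counting interval (bars), by gene (y axis) and coloured by phase. Ccnb2 lies highest at 0.71 and Mki67 lowest at -0.39, and the S phase genes lie closer to 0 than the G2/M genes.

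Among the S phase genes, the 6 subunits of the Mcm helicase that licenses and unwinds replication origins were close in both libraries: Mcm2 at 16.5 and 15.5 CPM, Mcm3 at 20.7 and 21.6, Mcm4 at 18.6 and 19.4, Mcm5 at 18.5 and 18.0, Mcm6 at 29.1 and 28.2, and Mcm7 at 38.2 and 33.2. Of these only Mcm7 had an interval of the log2 ratio on 1 side of 0 (-0.20, -0.33 to -0.08). The replication clamp Pcna was at 60.3 and 62.2 CPM. The enzymes that supply deoxynucleotides differed little, with Tyms, which makes thymidylate, at 49.9 and 54.3 CPM, and the subunits of ribonucleotide reductase Rrm1 at 33.8 and 33.1 CPM and Rrm2 at 19.3 and 21.4 CPM. Gins2, part of the GINS complex that completes the helicase, was at 15.7 and 17.6 CPM. The other 4 S phase genes had ratios below 0, namely the E cyclins Ccne1 (6.49 and 5.57 CPM) and Ccne2 (4.98 and 4.30 CPM), which start S phase, the licensing factor Cdc6 (5.69 and 4.55 CPM) and the uracil glycosylase Ung (7.20 and 5.84 CPM). Of these, only the interval of Ung, at -0.30 (-0.59 to -0.01), lay on 1 side of 0.

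The G2/M genes split in direction. Higher in the STK25 knockout library were Ccnb2, a B cyclin of the mitotic kinase, at 30.8 and 50.4 CPM (log2 0.71, 0.59 to 0.84), Cenpa, the histone variant of centromeres, at 48.9 and 67.0 CPM, Cdc20 at 28.0 and 38.0 CPM (0.44, 0.31 to 0.58), Birc5, the survivin subunit of the chromosomal passenger complex, at 76.9 and 97.6 CPM, Hmgb2 at 231 and 287 CPM, Ube2c at 102 and 121 CPM, and Cdca8, borealin of the passenger complex, at 41.2 and 48.5 CPM. Their ratios all had intervals above 0. Lower in the STK25 knockout library were Mki67, which coats mitotic chromosomes, at 117 and 89.5 CPM (-0.39, -0.46 to -0.32), Top2a, the topoisomerase that untangles sister chromatids, at 81.8 and 63.3 CPM (-0.37), the kinetochore motor Cenpe at 35.1 and 27.9 CPM, the checkpoint kinase Bub1b at 15.2 and 12.5 CPM, the spindle assembly factor Tpx2 at 37.5 and 32.1 CPM, the kinesins Kif23 at 32.7 and 28.0 CPM and Kif11 at 20.2 and 17.8 CPM, and the midzone protein Prc1 at 34.7 and 30.2 CPM. The intervals of those 8 lay below 0. The other 9 had intervals that took in 0. They were Ccnb1 at 20.3 and 22.5 CPM, Ccna2, a cyclin of S phase and G2, at 37.6 and 40.2 CPM, the mitotic kinases Cdk1 at 36.2 and 34.7 CPM and Plk1 at 19.6 and 19.7 CPM, Aurka at 13.6 and 12.1 CPM, Aurkb at 15.3 and 13.9 CPM, the checkpoint kinase Bub1 at 9.70 and 8.29 CPM, the kinetochore protein Cenpf at 52.3 and 52.1 CPM, and the spindle protein Nusap1 at 14.5 and 14.4 CPM. Stmn1, which destabilises microtubules, was at 85.6 and 106 CPM, higher in the STK25 knockout library (0.31).

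The direction of the G2/M genes followed the length of the gene. Across the 24 genes, the log2 ratio and the span of the gene in the genome had a Spearman rho of -0.70, whereas across the 15 S phase genes it was 0.01. Hmgb2 (4.09 kb, 0.31) and Cdc20 (4.45 kb, 0.44) are short, and Mki67 (26.6 kb, -0.39), Top2a (31.2 kb, -0.37) and Cenpe (61.1 kb, -0.33) are longer, but Nusap1 (32.9 kb, -0.02) and Cenpf (47.5 kb, -0.01) are long as well and were level. The same direction was present over the 14676 genes with a span and enough counts, with a rho of -0.49, so it was not particular to the cell cycle genes. Outside the epithelium, the rho of the G2/M genes with enough counts was -0.01 in T or NK cells, -0.05 in endothelial cells, -0.51 in macrophages and -0.44 in fibroblasts. Over all genes it was -0.45, -0.47, -0.55 and -0.38 there. The points share 2 libraries and are genes, not replicates, and the part that length has in the direction of any member was not tested.

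**Figure D2:**
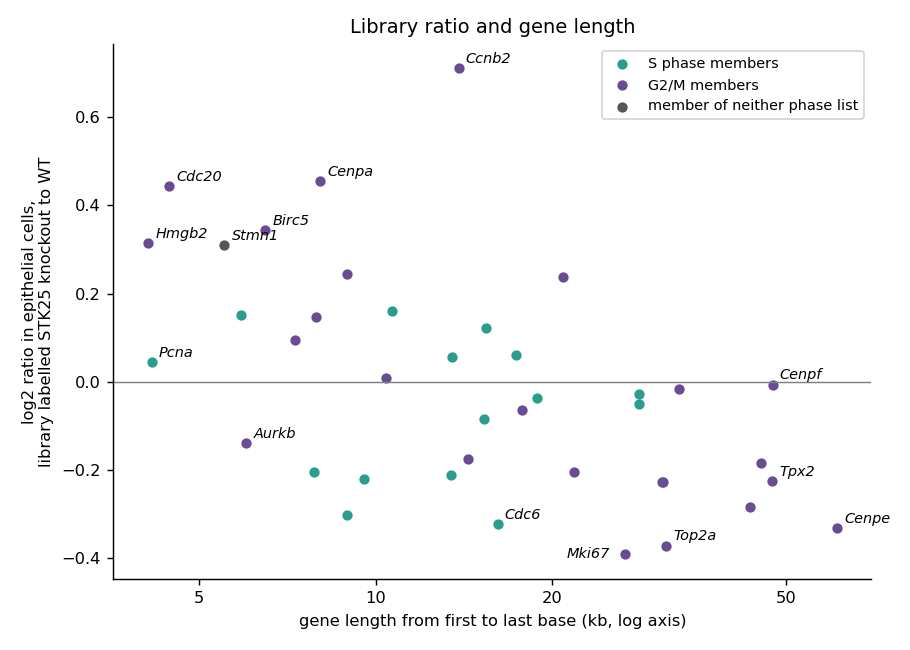
Log2 ratio of each member in epithelial cells (y axis, STK25 knockout to WT library) against the span of its gene in kb (x axis, log scale), coloured by phase. Short G2/M genes such as Cdc20 (0.44) lie above 0 and longer ones such as Top2a (-0.37) below it, while Cenpf (-0.01) lies at 0.

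To count cycling cells at 1 depth, each cell was thinned to 1000 UMIs and called G2/M-positive, or S-positive, when at least 3 UMIs from at least 2 genes of the list remained. The share of G2/M-positive epithelial cells was 224 of 2468 (9.08%, 7.97 to 10.3) and 434 of 4395 (9.87%, 9.01 to 10.8), a difference of 0.80 percentage points with an interval from -0.68 to 2.24. S-positive cells were 34 (1.38%) and 49 (1.11%), a difference of -0.26 points (-0.88 to 0.29). Both intervals took in 0. When cells were thinned to 500 UMIs and called at 2 UMIs, the G2/M difference was 1.33 points, with an interval just above 0 (0.0010 to 2.61). The thinning left out 172 and 102 shallower cells. Without thinning the G2/M shares were 30.04% and 37.7% and the S shares 19.1% and 25.4%, with median depths of 4045 and 5038 UMIs. With a cut of 2 UMIs, the S-positive shares were 4.09% and 3.98% and the G2/M-positive shares 15.4% and 15.95%. Few cells passed both lists at 3 UMIs, 10 and 18 cells, which is 0.41% in each library.

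Genes that the call had not used moved with it in both libraries. In G2/M-positive against other epithelial cells, the median depth before thinning was 6350.5 against 4317 UMIs in the WT library and 12791.5 against 4829 UMIs in the STK25 knockout library, and the part of depth in what follows was not tested beyond the CPM scale. All epithelial states were pooled in this comparison, and the part of state in what follows was not tested either. The 35 other mitotic genes that were counted summed to 2678 against 436 CPM in the WT library (log2 2.62) and 2671 against 419 CPM in the STK25 knockout library (2.67). All 35 were higher with intervals above 0 in both libraries, where 21.1% of 14358 genes were higher by that criterion and 21.1% were lower. Cks2, the small subunit of cyclin-dependent kinases, was at 359 against 66.1 CPM and 460 against 83.3 CPM, the condensin subunit Smc4 at 184 against 37.4 CPM and 160 against 29.3 CPM, and Cks1b at 149 against 28.1 CPM and 169 against 34.6 CPM.

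The S phase genes were higher in G2/M-positive cells too, at 727 against 277 CPM and 703 against 275 CPM. Of the 15, 11 were higher in both libraries, and Ccne1, Ccne2, Cdc6 and Ung were not. The 33 other replication genes summed to 1516 against 595 CPM and 1400 against 557 CPM, and 32 of them were higher in both libraries. Their most abundant genes were the dUTPase Dut at 147 against 53.7 CPM and 151 against 53.8 CPM, the histone chaperone Nasp at 110 against 50.02 CPM and 106 against 48.2 CPM, and the deubiquitinase Usp1 at 115 against 37.6 CPM and 101 against 36.6 CPM.

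Of the 6 D cyclins and their kinases 3 were higher and 2 lower with intervals on 1 side of 0 in both libraries. Of the 7 inhibitors 3 were higher and 2 lower. Among all 14358 genes 21.1% were higher and 21.1% lower by that criterion, so the counts of these short lists are not read as a result about them. The G2/M-positive cells also held the epithelial states in other proportions. Inflammatory cells made up 1.79% and 2.30% of positive cells but 19.8% and 14.4% of all epithelial cells called. Transit cells made up 24.1% and 37.8% of positive cells against 19.1% and 19.8% of all. The part of state in the differences below was not tested. Cyclin D1 (Ccnd1, 203 against 108 CPM and 170 against 125 CPM), its kinase Cdk4 (262 against 106 CPM and 238 against 143 CPM) and Cdk2 were higher in G2/M-positive cells in both libraries, and cyclin D2 (Ccnd2, 131 against 160 CPM and 202 against 245 CPM) and Cdk6 (58.9 against 70.3 CPM and 35.3 against 49.7 CPM) were lower. Ccnd3 was lower in the WT library (-0.57) and its interval took in 0 in the STK25 knockout library (-0.08). Of the 7 inhibitors of cyclin-dependent kinases, p21 (Cdkn1a) was lower in both libraries at 100 against 259 CPM and 119 against 279 CPM, as was Cdkn2b at 18.7 against 45.6 CPM and 21.9 against 67.4 CPM. Cdkn1b (42.9 against 31.2 CPM and 48.9 against 33.3 CPM), Cdkn2c (12.4 against 2.32 CPM and 11.3 against 2.47 CPM) and Cdkn2d (27.8 against 7.70 CPM and 29.9 against 8.81 CPM) were higher. Cdkn2a, which encodes p16 and p19Arf, was 18.7 against 12.2 CPM in the WT library (0.62, 0.19 to 1.02) and 27.4 against 55.2 CPM in the STK25 knockout library (-1.01, -1.23 to -0.80). Cdkn1c was level in the WT library, at 46.2 against 46.7 CPM, and lower in the STK25 knockout library, at 17.6 against 48.0 CPM. Of the E2F and pocket proteins 9 of 13 were higher in both libraries, such as the E2F partner Tfdp1 at 94.8 against 50.5 CPM and 76.0 against 42.9 CPM. E2f3 was at 69.6 against 57.9 CPM and 41.8 against 38.7 CPM, and Tfdp2 at 69.3 against 66.7 CPM and 65.1 against 56.8 CPM. Of the switches of CDK1, 7 of 8 were higher, such as the phosphatase Cdc25a at 49.2 against 32.4 CPM and 37.0 against 29.4 CPM, and the inhibitory kinases Wee1 at 29.9 against 24.4 CPM and 29.2 against 17.7 CPM and Pkmyt1 at 21.0 against 9.96 CPM and 28.9 against 8.64 CPM.

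The same regulators were then compared between the libraries in all epithelial cells. Over all genes in these cells the median log2 ratio was -0.11, with 6224 above and 10488 below 0. The 33 other replication genes had a median log2 ratio of -0.09, with 10 above and 23 below 0, and the 35 other mitotic genes -0.07, with 12 above and 23 below 0. In them, Dut was at 67.7 and 69.6 CPM, Nasp at 59.2 and 57.7, Usp1 at 49.5 and 47.1, Cks2 at 110 and 144 (0.39), Smc4 at 59.5 and 50.6 (-0.23) and Cks1b at 46.4 and 56.3 CPM (0.28). Cdkn2a was the only gene of these lists past a log2 ratio of 1, at 13.3 and 50.6 CPM (1.93, 1.75 to 2.11), and it was at 28.2 and 90.6 CPM in stem-like cells, 3.54 and 49.8 CPM in inflammatory cells, 10.3 and 77.9 CPM in Krt36 Klk15 cells and 2.84 and 3.74 CPM in transit cells. Of the other inhibitors, Cdkn1a was at 235 and 253 CPM, Cdkn1b at 33.1 and 35.9, Cdkn1c at 46.4 and 43.0, Cdkn2b at 41.4 and 60.0 (0.54), Cdkn2c at 3.82 and 3.92 and Cdkn2d at 10.7 and 12.2 CPM. Of the D cyclins, Ccnd1 was at 122 and 133 CPM, Ccnd2 at 155 and 238 (0.62) and Ccnd3 at 44.7 and 34.4 (-0.38), with Cdk4 at 130 and 159 (0.29), Cdk6 at 68.5 and 47.3 (-0.53) and Cdk2 at 12.5 and 11.3 CPM. All 13 E2F and pocket genes had ratios below 0, with a median of -0.40, such as E2f3 at 59.5 and 39.2 CPM, Tfdp1 at 57.0 and 48.2, Tfdp2 at 67.1 and 58.2 and Rb1, the retinoblastoma protein, at 49.9 and 32.0 CPM. Among all genes, those longer than the median span had a median of -0.27, and the part of length in these lists was not tested. The CDK1 switches had a median of -0.21, with Cdc25a at 34.8 and 30.7 CPM, Wee1 at 25.1 and 19.5 and Pkmyt1 at 11.7 and 11.9 CPM.

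**Figure D3:**
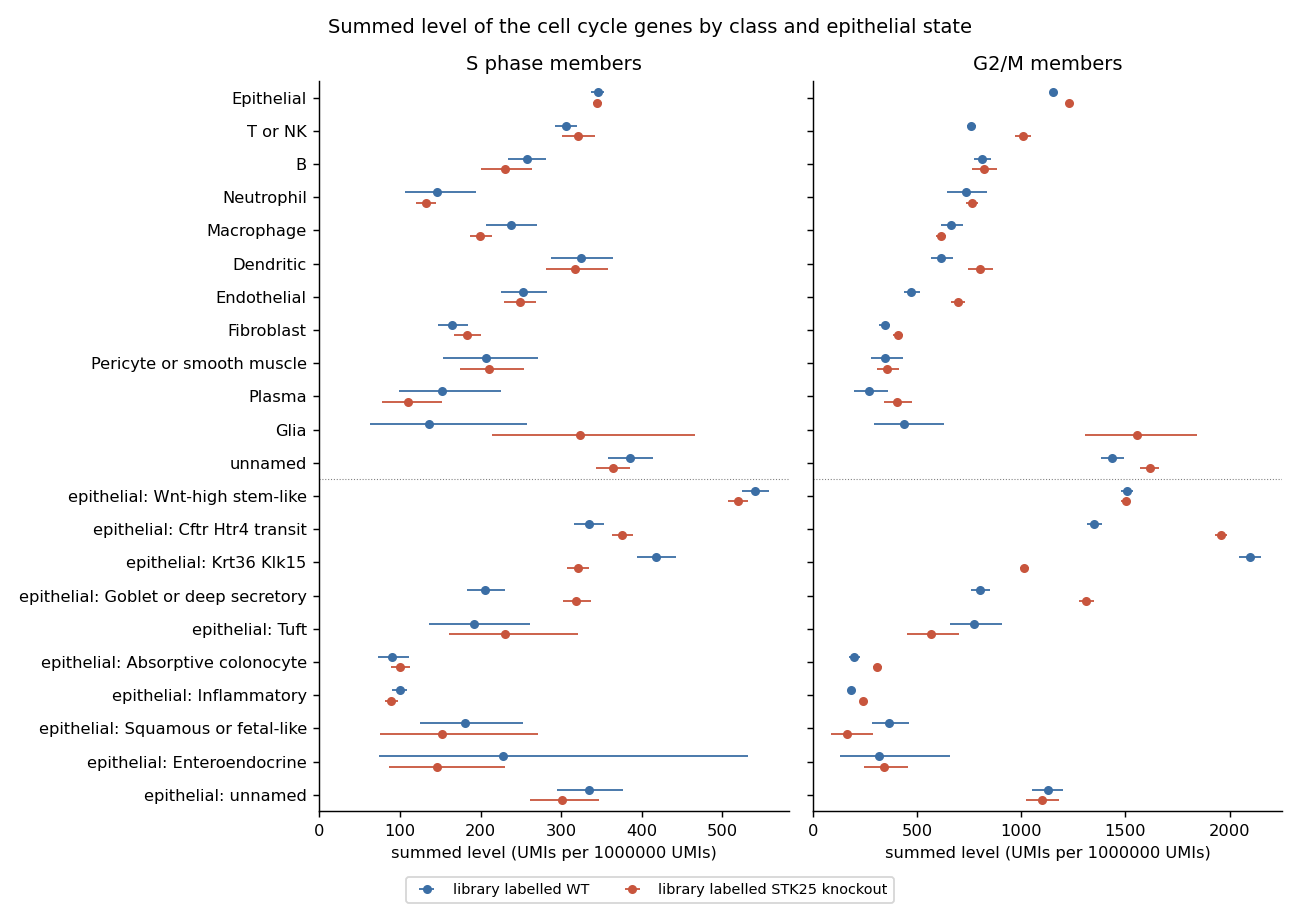
Summed level of the S phase genes (left) and the G2/M genes (right) in CPM (x axes) by cell class and epithelial state (y axis), with exact 95% counting intervals (bars) and the libraries in blue (WT) and red (STK25 knockout). Stem-like cells hold the highest S phase level at 541 and 519 CPM, and absorptive and inflammatory cells the lowest levels of both lists among the larger epithelial states.

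The epithelial cells fell into 9 named states, and the level of the cell cycle genes followed them. Wnt-high stem-like cells (Lgr5, Ascl2, Axin2; 641 and 1176 cells) held the highest S phase level, 541 and 519 CPM, and G2/M genes at 1508 and 1500 CPM. Their log2 ratio was -0.01 (-0.04 to 0.03) for G2/M. Cftr Htr4 transit cells (477 and 875 cells, median depths 4730 and 7288 UMIs) were at 334 and 376 CPM in S phase genes and 1349 and 1960 CPM in G2/M genes. Krt36 Klk15 cells (146 and 353 cells), named from Krt36, Klk15 and the Hox genes Hoxd11 and Hoxd13, were at 418 and 321 CPM and 2096 and 1015 CPM. In goblet or deep secretory cells (Muc2, Tff3; 257 and 521 cells) the values were 205 and 319 CPM for S phase and 803 and 1312 CPM for G2/M. Absorptive colonocytes (194 and 573 cells) held 90.3 and 100 CPM in S phase and 198 and 309 CPM in G2/M, and inflammatory cells (501 and 646 cells) 99.4 and 89.2 CPM and 185 and 239 CPM. Between absorptive and inflammatory cells the intervals of both lists overlapped in the WT library. Tuft cells (32 and 42 cells) held 191 and 230 CPM in S phase and 776 and 566 CPM in G2/M, squamous or fetal-like cells (46 and 10 cells) 180 and 152 CPM and 366 and 165 CPM, and enteroendocrine cells (7 and 30 cells) 228 and 145 CPM and 319 and 339 CPM. The epithelial cells left unnamed (339 and 271 cells), which were led by the leukocyte genes Dock2 and Ptprc, held 334 and 301 CPM and 1126 and 1100 CPM.

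**Figure D4:**
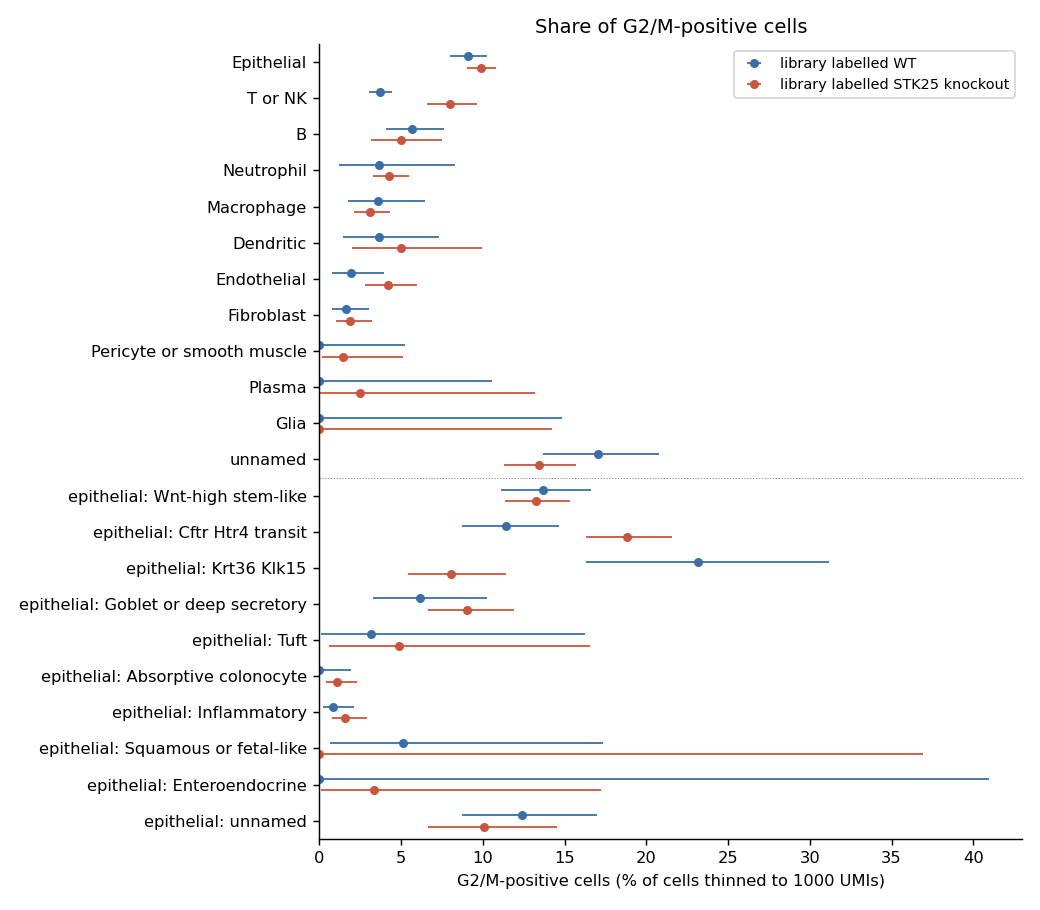
Share of G2/M-positive cells (x axis, percent of cells thinned to 1000 UMIs) by class and epithelial state (y axis), with exact 95% intervals (bars) and the libraries in blue (WT) and red (STK25 knockout). Among the named states, the share is highest in Krt36 Klk15 cells of the WT library (23.1%) and in transit cells of the STK25 knockout library (18.8%).

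The share of G2/M-positive cells also differed by state. It was 86 of 628 (13.7%) and 154 of 1165 (13.2%) in stem-like cells, a difference of -0.48 points (-3.97 to 2.85). In transit cells it was 54 of 472 (11.4%) and 164 of 871 (18.8%), a difference of 7.39 points (3.28 to 11.3). In Krt36 Klk15 cells it was 31 of 134 (23.1%) and 28 of 348 (8.05%), a difference of -15.1 points (-23.6 to -7.46), although without thinning the shares were 58.2% and 60.3% at median depths of 12784.5 and 18743 UMIs. In goblet or deep secretory cells it was 13 of 212 (6.13%) and 44 of 489 (8.998%), with a difference of 2.87 points whose interval took in 0 (-1.90 to 6.91). It was 0 of 190 in absorptive cells of the WT library, which allows a share of up to 1.58%, and 6 of 562 (1.07%) in the STK25 knockout library, and 0.82% and 1.58% in inflammatory cells. Of all G2/M-positive epithelial cells, stem-like cells made up 38.4% and 35.5%, transit cells 24.1% and 37.8%, Krt36 Klk15 cells 13.8% and 6.45% and goblet or deep secretory cells 5.80% and 10.1%.

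**Figure D5:**
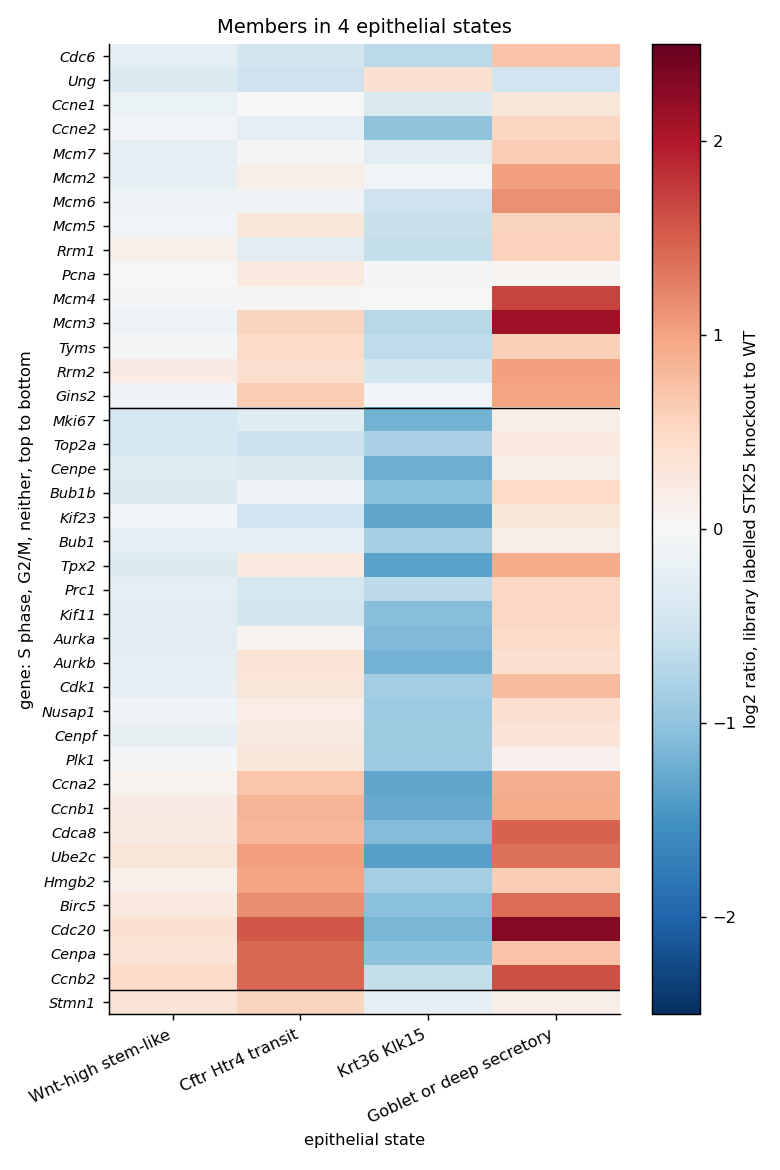
Log2 ratio of each member, STK25 knockout to WT, by gene (y axis, S phase above G2/M above Stmn1) and by epithelial state (x axis), with red for higher and blue for lower in the STK25 knockout library. In the Krt36 Klk15 state all 24 G2/M genes lie below 0, and in the goblet or deep secretory state all 24 lie above 0. The median over all genes was slightly below 0 in both states. The goblet or deep secretory state joins subclusters whose G2/M levels differed between the libraries in opposite directions.

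In the Krt36 Klk15 state, all 24 G2/M genes were lower in the STK25 knockout library, with a range of log2 ratios from -1.36 to -0.58 and a median of -1.03. Of the 40 members 13 were lower by a log2 ratio of 1 or more, where 1.87% of 11395 genes were lower by that much and 2.76% were higher. The S phase genes were lower in 13 of 15 cases with a median of -0.45, and the median over all genes was -0.06. The strongest differences were in Ube2c at 288 and 112 CPM (-1.36, -1.51 to -1.22), Tpx2 at 74.6 and 29.6 CPM (-1.33), Ccna2 at 102 and 41.4 CPM (-1.30), Kif23 at 57.9 and 23.7 CPM (-1.29) and Ccnb1 at 50.1 and 20.9 CPM (-1.26). Mki67 was at 143 and 63.2 CPM and Hmgb2 at 353 and 197 CPM, while Pcna was at 60.1 and 59.2 CPM and Tyms at 75.0 and 48.4 CPM. Against gene length, the ratios in this state had a rho of 0.11 over the 24 G2/M genes, -0.62 over the 12 S phase genes with enough counts and -0.24 over 9802 genes. The size of the difference depended on which cells the state held. It was -0.39 with the cell cycle genes among the clustering genes and -0.41 at a finer clustering of the classes. After removing the cells with the highest doublet scores it was -0.32, and it lay below 0 under each of these settings. The state was not found at a coarser clustering of the classes or with no cell filter. The epithelial states themselves were clustered at resolution 0.8 throughout.

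In the goblet or deep secretory state the direction was the opposite. All 24 G2/M genes were above 0, with a median of 0.51, and 13 of the 14 S phase genes with enough counts, with a median of 0.59, beside a median of -0.14 over all genes. Of the 39 members with enough counts, 8 were higher by a log2 ratio of 1 or more, where 2.39% of 11283 genes were higher by that much and 4.15% were lower. Cdc20 was at 6.12 and 30.04 CPM (2.30, 1.32 to 3.46), Mcm3 at 4.08 and 17.7 CPM (2.12, 0.93 to 3.61), Ccnb2 at 15.6 and 47.3 CPM (1.60), Cdca8 at 17.7 and 49.2 CPM (1.48), Birc5 at 37.4 and 98.5 CPM (1.40) and Ube2c at 59.8 and 156 CPM (1.38). Mki67 was close in both, at 94.5 and 104 CPM, and so was Pcna at 50.3 and 51.7 CPM; Tyms was at 42.1 and 63.5 CPM and Hmgb2 at 193 and 294 CPM. The state joins 2 subclusters. In that with Fcgbp among its leading genes the G2/M level was 861 and 665 CPM (-0.37). In that led by Defa24, Lyz1, Spink4 and Retnlb it was 769 and 1500 CPM (0.96), at median depths of 1390 and 12001 UMIs. When each cell was given equal weight, the log2 ratio of the G2/M level was 0.20 in place of 0.71.

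In transit cells the G2/M genes were not moved together. Of the 24, 16 were above 0, with a median of 0.26 beside -0.19 over all genes, and 5 were higher by a log2 ratio of 1 or more, where 1.82% of 12616 genes were higher by that much and 4.42% were lower. Those 5 were Cdc20 at 24.5 and 72.2 CPM (1.56, 1.25 to 1.88), Ccnb2 at 35.9 and 96.5 CPM (1.43), Cenpa at 45.1 and 122 CPM (1.43), Birc5 at 74.8 and 167 CPM (1.16) and Ube2c at 82.6 and 169 CPM (1.03), and Hmgb2 was at 247 and 491 CPM (0.99). Mki67 was lower, at 193 and 156 CPM (-0.31), and so was Top2a, at 95.7 and 66.0 CPM (-0.54). The ratio followed gene length closely here (rho -0.75 over the 24 genes, against -0.63 over 11018 genes). With a stricter cell filter the log2 ratio of the G2/M level was 0.29 in place of 0.54, and with the cell cycle genes among the clustering genes it was 0.31. Tyms was at 57.3 and 78.3 CPM and Pcna at 48.0 and 57.0 CPM. The 3 subclusters differed: the G2/M level was 1214 and 864 CPM (-0.49) in that led by Grin2b and Esrrg, 1854 and 2367 CPM (0.35) in that led by Hoxb8, and 946 and 1958 CPM (1.05) in that led by Adh1 and Sycn, of which the WT library had 71 cells and the STK25 knockout library 309.

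In stem-like cells, which held 38.4% and 35.5% of the G2/M-positive epithelial cells, no member passed a log2 ratio of 1 and the median member was at -0.08, beside -0.09 over all genes. Pcna was at 88.5 and 88.7 CPM, Tyms at 71.4 and 69.7, Hmgb2 at 312 and 341 and Ube2c at 125 and 153 CPM, with Ccnb2 higher at 36.9 and 51.8 CPM (0.49) and Mki67 (138 and 102 CPM, -0.43) and Top2a (141 and 104 CPM, -0.44) lower. In absorptive colonocytes Pcna was at 31.8 and 32.7 CPM, Tyms at 11.9 and 14.0, Hmgb2 at 61.5 and 101 and Ube2c at 11.9 and 35.7 CPM (1.58). In inflammatory cells Pcna was at 36.9 and 35.6 CPM, Tyms at 9.94 and 9.64, Hmgb2 at 56.1 and 67.8 and Kif23 at 13.3 and 23.9 CPM (0.85). In tuft cells Pcna was at 19.6 and 52.6 CPM, Mcm7 at 24.5 and 39.5, Hmgb2 at 162 and 125 and Mki67 at 103 and 46.1 CPM. In squamous or fetal-like cells Pcna was at 69.0 and 55.1 CPM, Mcm6 at 21.2 and 13.8, Hmgb2 at 186 and 82.7 and Top2a at 31.8 and 13.8 CPM, from 46 and 10 cells. Enteroendocrine cells gave 3 and 6 UMIs of Pcna, 2 and 14 of Hmgb2, 1 and 3 of Ccna2 and 0 and 4 of Rrm1. In the unnamed epithelial cells Mcm7 was at 64.0 and 47.2 CPM, Pcna at 46.5 and 66.9, Hmgb2 at 252 and 265 and Mki67 at 226 and 141 CPM.

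Outside the epithelium, glia apart, the G2/M level of each named class was below that of the epithelial cells as a whole in its library. In each of these classes, neutrophils included, it was above that of absorptive and inflammatory cells of the same library. Epcam, an epithelial surface gene, was found in each class, and the part of free epithelial RNA in a level was not tested. A share at or below that of neutrophils was read neither as cycling nor as its absence. Neutrophils do not divide once mature and were taken as background. Of them 3.65% and 4.27% were G2/M-positive, or 1.46% and 1.45% when Hmgb2 was left out of the call, with Epcam at 682 and 751 CPM. The WT neutrophils were 232 cells, not all deep enough to be called, so their share rests on few positive cells. The interval of the difference ran from -4.15 to 3.35 points, and from -3.77 to 1.49 points without Hmgb2. In the STK25 knockout library the neutrophils include a cluster of 401 cells led by Ngp and Camp, granule genes of immature neutrophils, that held no WT cell. In that cluster 2.51% were G2/M-positive, and without it the neutrophil shares were 3.65% and 4.98%, or 1.46% and 1.73% without Hmgb2. In T or NK cells (3823 and 1423 cells) the G2/M level was 759 and 1008 CPM (0.41, 0.34 to 0.48), with Epcam at 523 and 748 CPM. Their S phase level was 305 and 321 CPM, and Hmgb2 was at 258 and 384 CPM, Mki67 at 59.6 and 78.9 (0.41), Pcna at 63.5 and 67.9 and Mcm6 at 46.7 and 44.7 CPM. G2/M-positive cells were 3.70% and 8.003%, a difference of 4.31 points (2.69 to 6.07), and 1.88% and 3.72% without Hmgb2. The class was made up differently in the libraries. A cluster with Lef1 among its leading genes held 2550 and 123 cells and a G2/M level of 688 and 634 CPM (-0.12). Another cluster, led by Il17a and Il23r, of 1105 and 1078 cells, held 871 and 1062 CPM (0.29) with shares of 4.27% and 8.90%. The remaining cluster, led by Xcl1 and Gzma, held 168 and 222 cells.

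In endothelial cells (469 and 806 cells) the G2/M level was 473 and 695 CPM (0.56, 0.42 to 0.69), with Epcam at 375 and 486 CPM and the S phase level at 252 and 248 CPM. The class joins a cluster led by Selp, Flt1 and other blood vessel genes, of 271 and 575 cells, at 393 and 677 CPM (0.79, 0.59 to 0.98), and a cluster led by Mmrn1, Lyve1 and other lymphatic genes, of 198 and 231 cells, at 579 and 732 CPM (0.34, 0.14 to 0.54). Of the 35 members with enough counts, 6 were higher by a log2 ratio of 1 or more, where 3.84% of 11220 genes were higher by that much and 3.21% were lower. Of the 23 G2/M genes 21 were above 0, with a median of 0.65 beside 0.01 over all genes. Mki67 was at 33.3 and 62.1 CPM (0.90, 0.39 to 1.43), Hmgb2 at 163 and 187 CPM, Pcna at 59.4 and 53.9 CPM and Tyms at 28.5 and 45.2 CPM (0.67). The G2/M-positive share was 1.95% and 4.17%, a difference of 2.22 points (-0.23 to 4.37). Both shares lay below those of neutrophils (3.65% and 4.27%), in the STK25 knockout library only slightly. On this call they were read neither as cycling nor as its absence. Without Hmgb2 the share was 2 of 359 (0.56%) and 19 of 671 (2.83%), a difference of 2.27 points (0.45 to 3.90), with neutrophils at 1.46% and 1.45% on that call.

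B cells (1610 and 646 cells) were at 814 and 823 CPM in G2/M genes and 257 and 230 CPM in S phase genes, with Epcam at 736 and 881 CPM, Hmgb2 at 242 and 253 CPM, Mki67 at 64.9 and 68.3 CPM, Pcna at 51.5 and 47.4 CPM and Mcm6 at 29.1 and 41.8 CPM, and 40 of 707 and 22 of 440 were G2/M-positive. Dendritic cells were at 616 and 802 CPM in G2/M genes (0.38) and 324 and 317 CPM in S phase genes, with Epcam at 209 and 436 CPM, Hmgb2 at 246 and 283 CPM, Mki67 at 70.5 and 67.9 CPM, Pcna at 58.0 and 72.6 CPM and Mcm6 at 36.4 and 38.6 CPM. Macrophages were at 664 and 613 CPM in G2/M genes and 237 and 200 CPM in S phase genes, with Epcam at 278 and 454 CPM. Their Hmgb2 was at 167 and 224 CPM, Mki67 at 84.0 and 67.9, Pcna at 61.9 and 55.7 and Mcm3 at 26.2 and 21.8 CPM, and without Hmgb2 the G2/M ratio was -0.36 in place of -0.12. Neutrophils were at 734 and 763 CPM, of which Hmgb2 gave 271 and 408 CPM, so that without it the G2/M level was 462 and 355 CPM (-0.38). Their S phase level was 145 and 132 CPM, with Pcna at 48.5 and 34.0 CPM, Rrm1 at 6.46 and 18.1 and Ube2c at 42.0 and 41.2 CPM. In the cluster led by Ngp and Camp the G2/M level was 694 CPM, and 215 CPM without Hmgb2. Fibroblasts were at 344 and 409 CPM in G2/M genes (0.25) and 165 and 183 CPM in S phase genes, with Epcam at 305 and 519 CPM, Hmgb2 at 116 and 127 CPM, Ube2c at 25.3 and 36.2 CPM, Pcna at 44.2 and 42.9 CPM and Rrm1 at 21.1 and 26.4 CPM.

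The smallest classes gave few counts. Pericytes or smooth muscle cells were at 348 and 357 CPM in G2/M genes and 207 and 211 CPM in S phase genes, with Hmgb2 at 85.1 and 133 CPM, Ube2c at 48.6 and 25.9, Pcna at 40.5 and 51.8 and Rrm1 at 40.5 and 25.9 CPM. Plasma cells were at 269 and 404 CPM and 153 and 110 CPM, with Hmgb2 at 79.4 and 110 CPM, Ube2c at 18.3 and 74.3, Pcna at 24.4 and 14.9 and Mcm6 at 18.3 and 11.9 CPM. Glia (27 and 28 cells) were at 438 and 1556 CPM in G2/M genes and 136 and 323 CPM in S phase genes, with Epcam at 272 and 1740 CPM. The UMIs behind the G2/M level were 29 and 135, of which Ube2c gave 2 and 38 and Hmgb2 10 and 16, and Tyms gave 1 and 5 UMIs and Rrm1 3 and 2. In the STK25 knockout library the 38 UMIs of Ube2c came from 7.14% of the glia, and 10 UMIs of Ccnb2 from 3.57%. None of 23 and 24 glia deep enough was G2/M-positive. The unnamed cells were shallow, with medians of 690 and 837 UMIs, and held 385 and 364 CPM in S phase genes, 1437 and 1616 CPM in G2/M genes and 1284 and 1659 CPM of Epcam, with Pcna at 81.3 and 64.2 CPM, Tyms at 47.5 and 58.2, Hmgb2 at 418 and 456 and Ube2c at 129 and 146 CPM. They join a cluster of 111 and 2416 cells, with a G2/M level of 1219 and 1507 CPM (0.31), and a cluster of 2034 and 194 cells, with 1449 and 2665 CPM (0.88), so the libraries' unnamed cells lie mostly in different clusters. Of the unnamed cells that reached 1000 UMIs, 17.0% and 13.4% were G2/M-positive, and 1687 and 1640 cells were too shallow to be called.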

How the data were processed

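Single cells of 2 libraries (WT and STK25 knockout) were profiled by droplet 3′ sequencing. Per the file headers and labels, the authors counted UMIs with Cell Ranger 7.1.0 on mm10 and deposited the filtered counts per gene and cell, as raw counts, and Seurat is named without a role. Cells with under 200 genes (2 and 3) or over 25% mitochondrial counts (270 and 282) were left out. Clustering used scanpy 1.11.5 and leidenalg 0.10.2 on 2000 variable genes without the cell cycle genes, 30 principal components, 20 neighbours, and resolution 1 for classes and 0.8 for epithelial states. A cluster took a name when at least 3 of its markers were each found in at least 10% of its cells and in a share 5 points above the median cluster, with a mean 10 points above; these thresholds were set after the values were seen. Scrublet's own threshold marked 0 cells, so doublets were kept, and an alternative removed the 1204 (9.81%) and 1542 (11.1%) highest-scoring cells. Levels are counts summed per class, with exact Poisson intervals, ratios have exact conditional binomial intervals, and shares have Clopper-Pearson intervals, with differences between shares from Newcombe's method. Lists are described for genes with at least 20 counts over both libraries, with 1 CPM added for the median of ratios, so a fold change of a low gene is understated. A floor is 3 counts. Named in epithelial cells were members with at least 200 counts, which was all 40, and elsewhere the 2 S phase and 2 G2/M genes with the most counts; of each other list, the 3 most abundant genes and all D cyclins and inhibitors with at least 50 counts. The members and lists were chosen with earlier results of these data known. The calculations were checked on simulated counts. These were drawn independently for each gene, as the intervals assume, so the check does not cover counts that clump within a few cells. Tools were Python 3.11.15, numpy 2.4.6, scipy 1.17.1, pandas 2.3.3 and scikit-learn 1.9.0. Alternatives were other filters, clusterings, thinnings and members. No test was made, since there is 1 library per group. The values of 1 gene of the other lists are not reported here.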

Additional observations from a re-analysis of the deposited data

Results flagged for a closer look

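The G2/M level log2 ratio of the Krt36 Klk15 state was -1.05, opposite in sign to that of the Cftr Htr4 transit state, 0.54, and to that of the goblet or deep secretory state, 0.71. These were singled out because states of 1 tissue moved in opposite directions between the same 2 libraries. The difference was not tested, since each condition is 1 library.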

How the results depend on the processing

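The direction of no G2/M ratio in the transit, goblet or Krt36 Klk15 states changed under the settings tried, but their size did. Resolutions 0.5 and 2 below are those of the clustering into classes, and the states were always clustered at resolution 0.8. For transit cells (0.54), it was 0.29 with a filter of at least 500 genes and at most 10% mitochondrial counts, 0.31 with cell cycle genes among the variable genes, 0.68 without the highest doublet scores, 0.42 with no cell filter, 0.63 at resolution 0.5, 0.36 at resolution 2 and 0.41 without Hmgb2. For goblet cells (0.71), it was 1.04, 0.91 and 0.89 under the stricter filter, the cell cycle genes and no filter, and 0.20 as a mean over cells. For Krt36 Klk15 cells (-1.05), it was -0.74 under the stricter filter, -0.39 with the cell cycle genes, -0.32 without the highest doublet scores, -0.41 at resolution 2 and -0.77 as a mean over cells, and no value could be had at resolution 0.5 or with no filter, where the state was not found. For stem-like cells (-0.01), it was -0.16, -0.11, -0.069, -0.21, -0.19 and -0.045 with the cell cycle genes, without the highest doublet scores, with no filter, at resolution 0.5, at resolution 2 and without Hmgb2. The epithelial G2/M level (0.09) was 0.16 without the highest doublet scores and 0.030 without Hmgb2, and the S phase level (-0.00) was 0.039 without those cells. Without thinning, the G2/M and S share differences, 0.80 and -0.26 points, were 7.63 and 6.35 points. Thinned to 500 UMIs, the G2/M difference was 1.33 points (0.0010 to 2.61); thinned to 2000 UMIs, it was 0.81 points (-0.95 to 2.51). The median member ratio (-0.03) ranged from -0.041 under the stricter filter to 0.077 as a mean over cells, and no interval of that median was computed. The cause of the shifts between settings was not tested. The settings for the 4 states were chosen after seeing the data. No paired analysis was possible because each group has 1 library. Depth limits what could be seen in small classes and in S-positive cells.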
